A study of Sus scrofa with 5 samples.

Results

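The genes of Notch signalling were followed through the cells of pig skin grafts. The set was named by symbol and holds 10 genes, namely the receptors NOTCH1, NOTCH2 and NOTCH3, the ligands DLL4, JAG1 and JAG2, and the target genes HES1, HEY1, HEY2 and HEYL. Of these, 8 were found, each as 1 row among the 20286 genes of the count matrices. NOTCH1 and JAG2 are not analysed here.

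Pigs received full-thickness wounds that were covered with split-thickness skin grafts (STSGs), sheets of epidermis with part of the dermis. Grafts were left untreated or were dressed with a hydrogel carrying FAKI, an inhibitor of focal adhesion kinase (FAK), which relays mechanical strain from the matrix into the cell. The series concerns how blocking that relay bears on fibrosis and contracture of the grafts. The 5 groups are the FAK inhibitor graft at day 7, the untreated graft at day 7, the FAK inhibitor graft at day 90, the untreated graft at day 90, and unwounded skin, which had neither wound nor graft. Every group is 1 library of freshly dissociated cells, run on the 10x droplet platform. The series mentions several pigs, but the labels give no strain, age or number of animals for any library. There was therefore no spread between replicates, no test could be made, and each interval below covers counting error only, at 95%.

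Notch receptors sit in the membrane of a cell and are switched on by ligands on its neighbour. The bound receptor is cut by proteases, and its inner part travels to the nucleus, where it joins RBPJ and switches on the HES and HEY genes, which encode repressors of transcription. In blood vessels DLL4 on endothelial cells takes part in sprouting and arterial identity. JAG1 and NOTCH3 pass signals between the vessel lining and the mural cells around it, the pericytes and smooth muscle. In the epidermis Notch signalling accompanies the departure of keratinocytes from the basal layer.

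The libraries ranged from 79671374 UMIs (unique molecular identifiers, 1 per captured transcript) in the FAK inhibitor graft at day 7 down to 18485301 in unwounded skin. Filtering left 8653 and 7566 cells of the FAK inhibitor and the untreated graft at day 7, 3693 and 5388 at day 90, against 1542 in unwounded skin. They formed 27 clusters, of which 24 could be named from marker genes, and each class name carries "-like", since no protein or histology was used. Levels are CPM, counts per 1000000 UMIs of all cells of a class in a library. Only classes of 50 cells or more are described as levels unless stated. Some barcodes occurred in more than 1 library. Unwounded skin shared 152 with the FAK inhibitor graft at day 90 and 133 with the untreated graft at day 90, and the smaller copy held a median of 1.11% and 1.32% of the UMIs of the larger. Kept cells with such a barcode made up 0.555% and 0.595% of the FAK inhibitor and the untreated library at day 7, 3.52% and 2.04% at day 90, and 7.39% of unwounded skin.

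NOTCH3, the receptor known for its role in vascular smooth muscle, was concentrated in pericyte- or smooth muscle-like cells, called mural-like below. There it stood at 322 CPM (95% interval 315 to 330) in the FAK inhibitor graft and 445 CPM (433 to 457) in the untreated graft at day 7. At day 90 it stood at 601 CPM (583 to 620) in the FAK inhibitor graft and 551 CPM (534 to 570) in the untreated graft, and in unwounded skin at 593 CPM (559 to 627). The unwounded value overlapped both values of day 90, whereas the day 7 grafts lay below all of these and apart from each other. A UMI of NOTCH3 was found in 78.7% and 81.9% of mural-like cells in the FAK inhibitor and the untreated graft at day 7, 89.3% and 86.3% at day 90, against 87.0% in unwounded skin. With each cell thinned to 2000 UMIs, the shares were 43.9% and 54.6% at day 7, 64.8% and 63.8% at day 90, against 65.2% in unwounded skin. T or NK-like cells, taken as a measure of free RNA, gave a NOTCH3 UMI in 0.521% and 0.725% of cells of the FAK inhibitor and the untreated graft at day 7, and in 0.504% and 0.485% of thinned cells. Mural-like NOTCH3 was far above that background. Median depth before thinning was 6800 and 5563 UMIs in mural-like cells of those grafts, against 2038 and 2402 in T or NK-like cells.

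**Figure D1:**
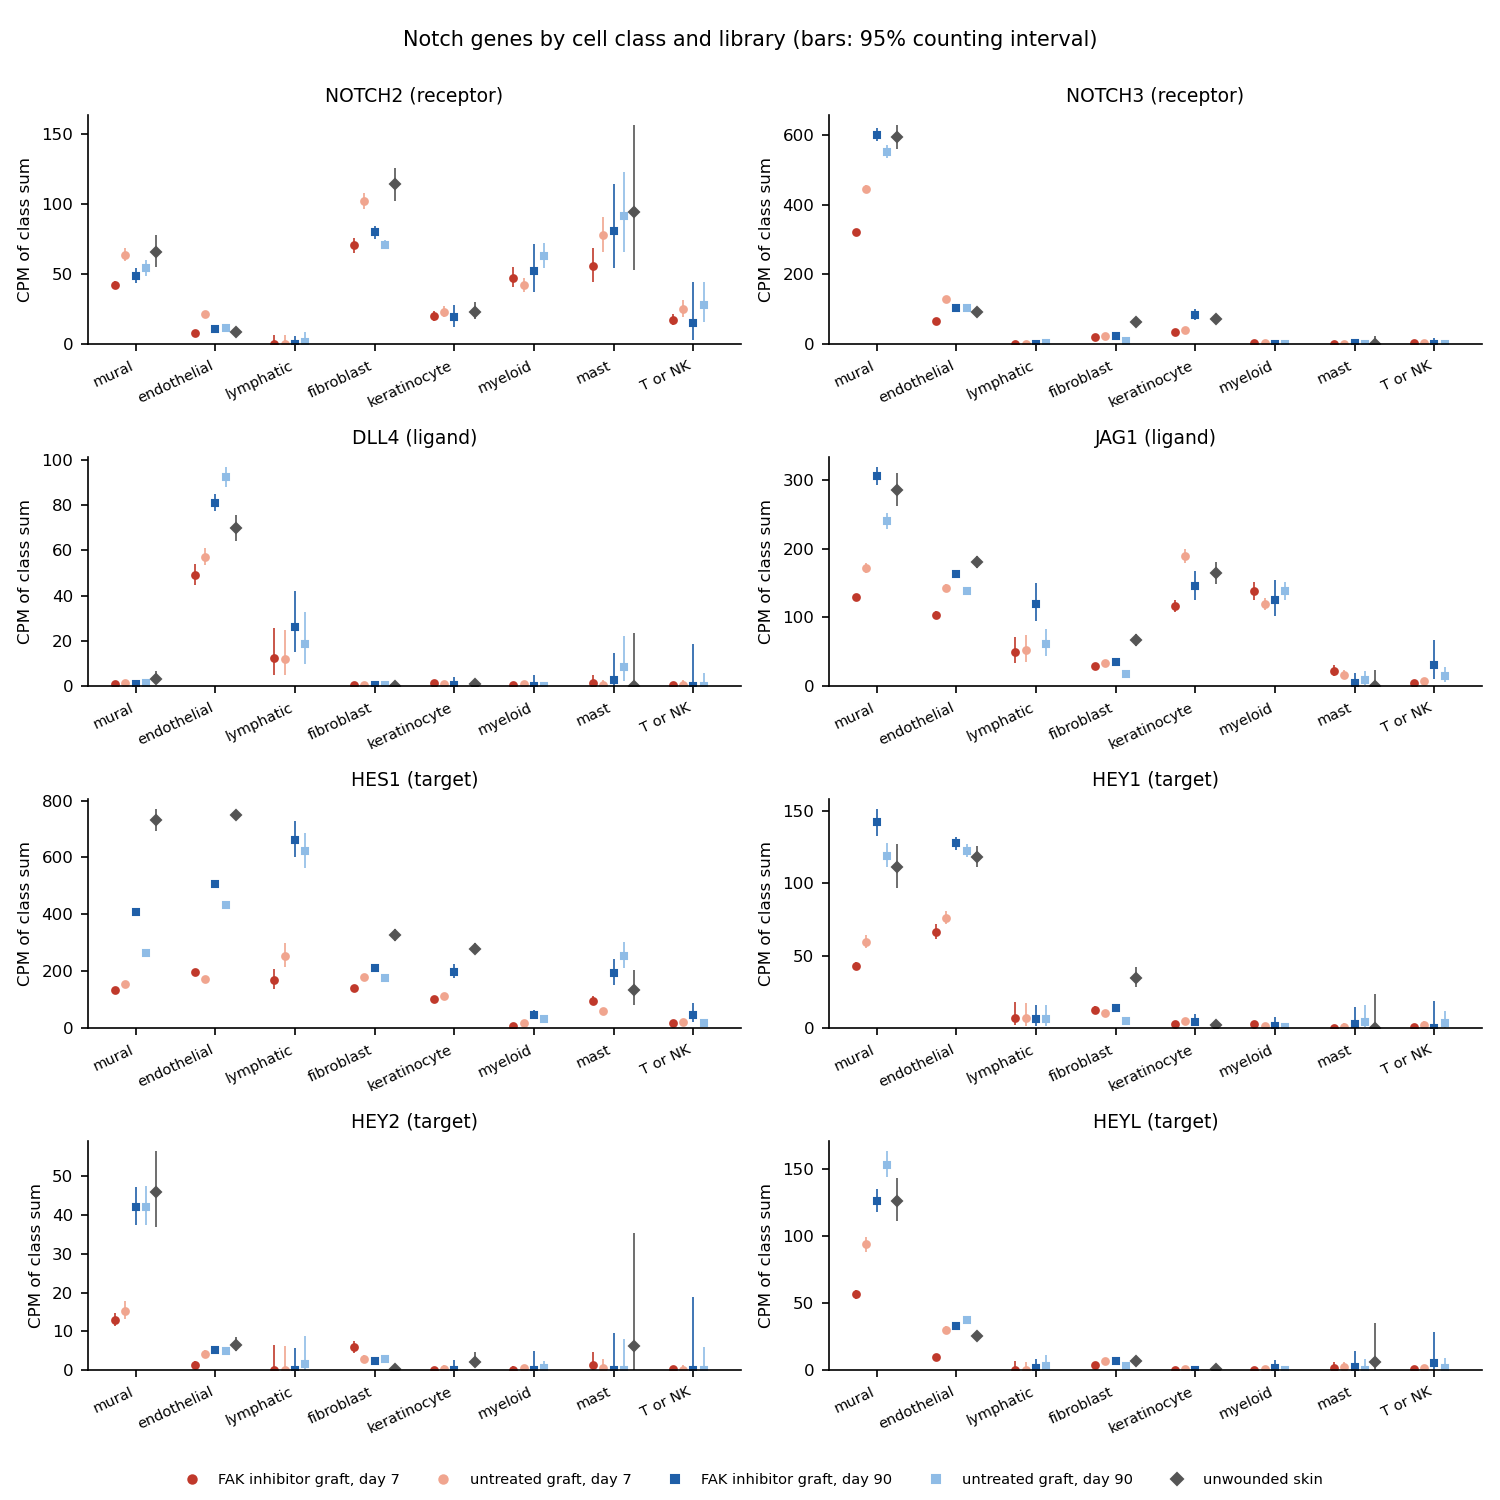
Levels (CPM of the summed UMIs, linear axes from 0) of the 8 Notch genes in 8 cell classes, for the 5 libraries where a class held 50 cells or more. Points are class sums and bars are 95% counting intervals; NOTCH3, HEY2 and HEYL peak in mural-like cells and DLL4 in endothelial-like cells in every library.

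Of the NOTCH3 UMIs of a library, mural-like cells held 83.8% and 66.1% in the FAK inhibitor and the untreated graft at day 7, 60.0% and 60.2% at day 90, against 50.2% in unwounded skin. The next class by NOTCH3 level was endothelial-like in all 5 libraries, 3.4 to 6.41 times lower. That rank rests on clusters 15 and 19, which also carried mural markers. Without them endothelial-like NOTCH3 was 2.92 to 9.23 CPM, below keratinocyte-like cells, and without shared barcodes the unwounded value was 42.2 CPM. Keratinocyte-like cells also carried NOTCH3, at 33.9 and 40.5 CPM in the FAK inhibitor and the untreated graft at day 7, 83.0 CPM in the FAK inhibitor graft at day 90 (65 cells) and 72.2 CPM in unwounded skin. The keratinocyte-like sums of day 7 were thus the low ones, and they did not overlap the other 2 by their intervals. A list of 11 suprabasal keratinocyte genes summed to 3581 and 5582 CPM in the same cells at day 7. It summed to 23496 CPM in the FAK inhibitor graft at day 90 and 15952 CPM in unwounded skin. NOTCH3 and these suprabasal keratinocyte genes were thus both lower at day 7 than in the other 2 libraries. The NOTCH3 order within day 7, and between those other 2 libraries, is not settled. Smooth muscle genes also differed in these cells. In the FAK inhibitor graft at day 90, 5 of 7 compared were higher than in unwounded skin and 0 lower (median log2 ratio 1.88). At day 7, 2 of 4 were higher and 1 lower in the FAK inhibitor graft (0.42). In the untreated graft at day 7, 1 was higher and 1 lower (-0.07). The part of keratinocyte stage and of these markers in the NOTCH3 levels was not tested.

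NOTCH2, the other receptor measured, had a different distribution, with its highest level in fibroblast-like or mast-like cells of each library. Fibroblast-like cells held 70.5 and 102 CPM in the FAK inhibitor and the untreated graft at day 7, 79.7 and 71.1 CPM at day 90, and 114 CPM in unwounded skin. Mast-like cells held 55.5 and 77.6 CPM of NOTCH2 at day 7, 80.4 and 91.2 CPM at day 90, and 94.6 CPM in unwounded skin, the last on 15 UMIs with an interval of 53.0 to 156. The mast-like and fibroblast-like intervals of NOTCH2 overlapped in 4 of the 5 libraries, so their order there is not settled. They were apart only in the untreated graft at day 7, at 65.9 to 90.9 CPM in mast-like and 96.3 to 108 CPM in fibroblast-like cells. Mural-like cells held between 42.2 and 65.6 CPM of NOTCH2, and myeloid-like cells between 42.2 and 62.7 CPM. In lymphatic endothelial-like cells NOTCH2 was at 0 UMIs in 3 of the 4 graft libraries and at 1.56 CPM in the untreated graft at day 90. NOTCH4, a receptor of endothelial cells that is outside the set, reached 46.8 and 45.7 CPM in endothelial-like cells of the FAK inhibitor and the untreated graft at day 7, 70.9 and 70.4 CPM at day 90, and 64.6 CPM in unwounded skin, against at most 2.79 CPM in mural-like cells.

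DLL4, a ligand of endothelial cells, was the most restricted of the set. Endothelial-like cells held 88.8% and 94.4% of its UMIs in the FAK inhibitor and the untreated graft at day 7, 98.1% and 95.5% at day 90, against 97.8% in unwounded skin. The endothelial-like level of DLL4 was 49.1 CPM (44.8 to 53.7) in the FAK inhibitor graft and 57.2 CPM (53.6 to 61.1) in the untreated graft at day 7. It was 80.9 CPM (77.2 to 84.8) in the FAK inhibitor graft and 92.1 CPM (87.9 to 96.5) in the untreated graft at day 90, against 69.6 CPM (64.0 to 75.5) in unwounded skin. DLL4 was therefore lowest at day 7 and highest at day 90, with unwounded skin between, and no interval overlapped that of a neighbouring time except within day 7, where the 2 grafts met at 53.7 and 53.6 CPM. Lymphatic endothelial-like cells came next in the grafts, at 11.9 to 26.1 CPM.

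JAG1, the ligand shared by vessel wall and epidermis, was spread over 4 classes. In mural-like cells it stood at 129 and 172 CPM in the FAK inhibitor and the untreated graft at day 7, 305 and 240 CPM at day 90, and 285 CPM in unwounded skin. In endothelial-like cells JAG1 stood at 103 and 143 CPM at day 7, 163 and 139 CPM at day 90, and 181 CPM in unwounded skin. The class with most JAG1 differed with time. Mural-like cells led in both day 90 grafts and the unwounded library, but at day 7 it was myeloid-like in the FAK inhibitor graft (138 CPM) and keratinocyte-like in the untreated graft (189 CPM). These leads are not settled, since the myeloid-like interval (126 to 151) overlapped the mural-like one (124 to 134), and the keratinocyte-like interval (179 to 199) met the mural-like one (164 to 179). Myeloid-like cells held JAG1 at between 120 and 138 CPM in all 4 grafts, a narrower range than in the other 3 classes.

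The 4 target genes differed in how they were spread over the cell classes. HEYL and HEY2 were mural-like genes in every library. HEYL stood at 56.6 CPM (53.4 to 59.9) and 93.7 CPM (88.3 to 99.3) in mural-like cells of the FAK inhibitor and the untreated graft at day 7, 126 CPM (118 to 135) and 153 CPM (144 to 163) at day 90, and 126 CPM (111 to 143) in unwounded skin. HEY2 stood at 13.0 and 15.3 CPM at day 7, 42.1 and 42.1 CPM at day 90, and 45.9 CPM in unwounded skin. HEY2 of the day 7 grafts overlapped each other and lay clear of the other 3 libraries, which overlapped among themselves. HEY1, in contrast, was shared between mural-like and endothelial-like cells. Its mural-like level was 42.9 and 59.6 CPM at day 7, 142 and 119 CPM at day 90, and 111 CPM in unwounded skin, while its endothelial-like level was 66.7 and 76.1 CPM at day 7, 128 and 122 CPM at day 90, and 118 CPM in unwounded skin. HES1 was the broadest, with 100 CPM or more in 5 classes of unwounded skin, and lymphatic endothelial-like cells reached 662 and 621 CPM in the FAK inhibitor and the untreated graft at day 90. In T or NK-like cells HES1 was low, between 18.0 and 45.8 CPM in the grafts.

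Within the mural-like cells the targets also differed by cluster. Cluster 5, whose leading genes include MYH11 and ACTG2 of smooth muscle, carried most HEY2, at 31.4 and 47.6 CPM in the FAK inhibitor and the untreated graft at day 7, 82.2 and 96.8 CPM at day 90, and 86.3 CPM in unwounded skin. Clusters 0 and 1 of 50 cells or more stayed between 3.37 and 15.5 CPM of HEY2. Among clusters of 50 cells or more, cluster 5 also held the most JAG1, with 167 and 219 CPM at day 7, 444 and 381 CPM at day 90, and 332 CPM in unwounded skin. HEYL went the other way. It was highest in cluster 0, where it stood at 63.7 and 127 CPM at day 7, 147 and 185 CPM at day 90, and 148 CPM in unwounded skin, against 43.6 and 63.0, 103 and 108, and 108 CPM in cluster 5. Cluster 5 made up 12.4% and 17.8% of mural-like cells in the FAK inhibitor and the untreated graft at day 7, 43.3% and 35.4% at day 90, against 51.3% in unwounded skin. Within cluster 5 itself, HEY2 was below the other 3 libraries at day 7, with no overlap of intervals.

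Among endothelial-like cells HEY1 and DLL4 differed between clusters. Cluster 3, led by GPIHBP1, RBP7 and BTNL9 and with the highest sum of arterial endothelial genes among clusters 2, 3 and 9, held HEY1 at 168 and 179 CPM in the FAK inhibitor and the untreated graft at day 7, 185 and 187 CPM at day 90, and 197 CPM in unwounded skin. In cluster 9, led by ACKR1, a receptor of venular endothelium, HEY1 was 13.4 and 3.84 CPM at day 7, 14.5 and 13.7 CPM at day 90, and 7.57 CPM in unwounded skin. HEY1 in cluster 3 hardly varied, with overlapping intervals in all 5 libraries. Over all endothelial-like cells HEY1 was lower at day 7. With each library clustered alone this turned round, with log2 ratios over unwounded skin of 2.97 in the FAK inhibitor graft and 2.92 in the untreated graft. Cluster 3 made up only 10.4% and 18.0% of these cells in the FAK inhibitor and the untreated graft at day 7, against 39.1% and 33.1% at day 90 and 43.8% in unwounded skin. Of these 3 clusters, DLL4 was likewise highest in cluster 3 where 50 cells were present, and low in cluster 9 (20.5 to 29.1 CPM), but within cluster 3 it did differ by library, at 58.2 and 84.8 CPM at day 7, 120 and 136 CPM at day 90, and 104 CPM in unwounded skin. JAG1 did not share this split, since cluster 9 held 120 to 178 CPM of it.

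**Figure D2:**
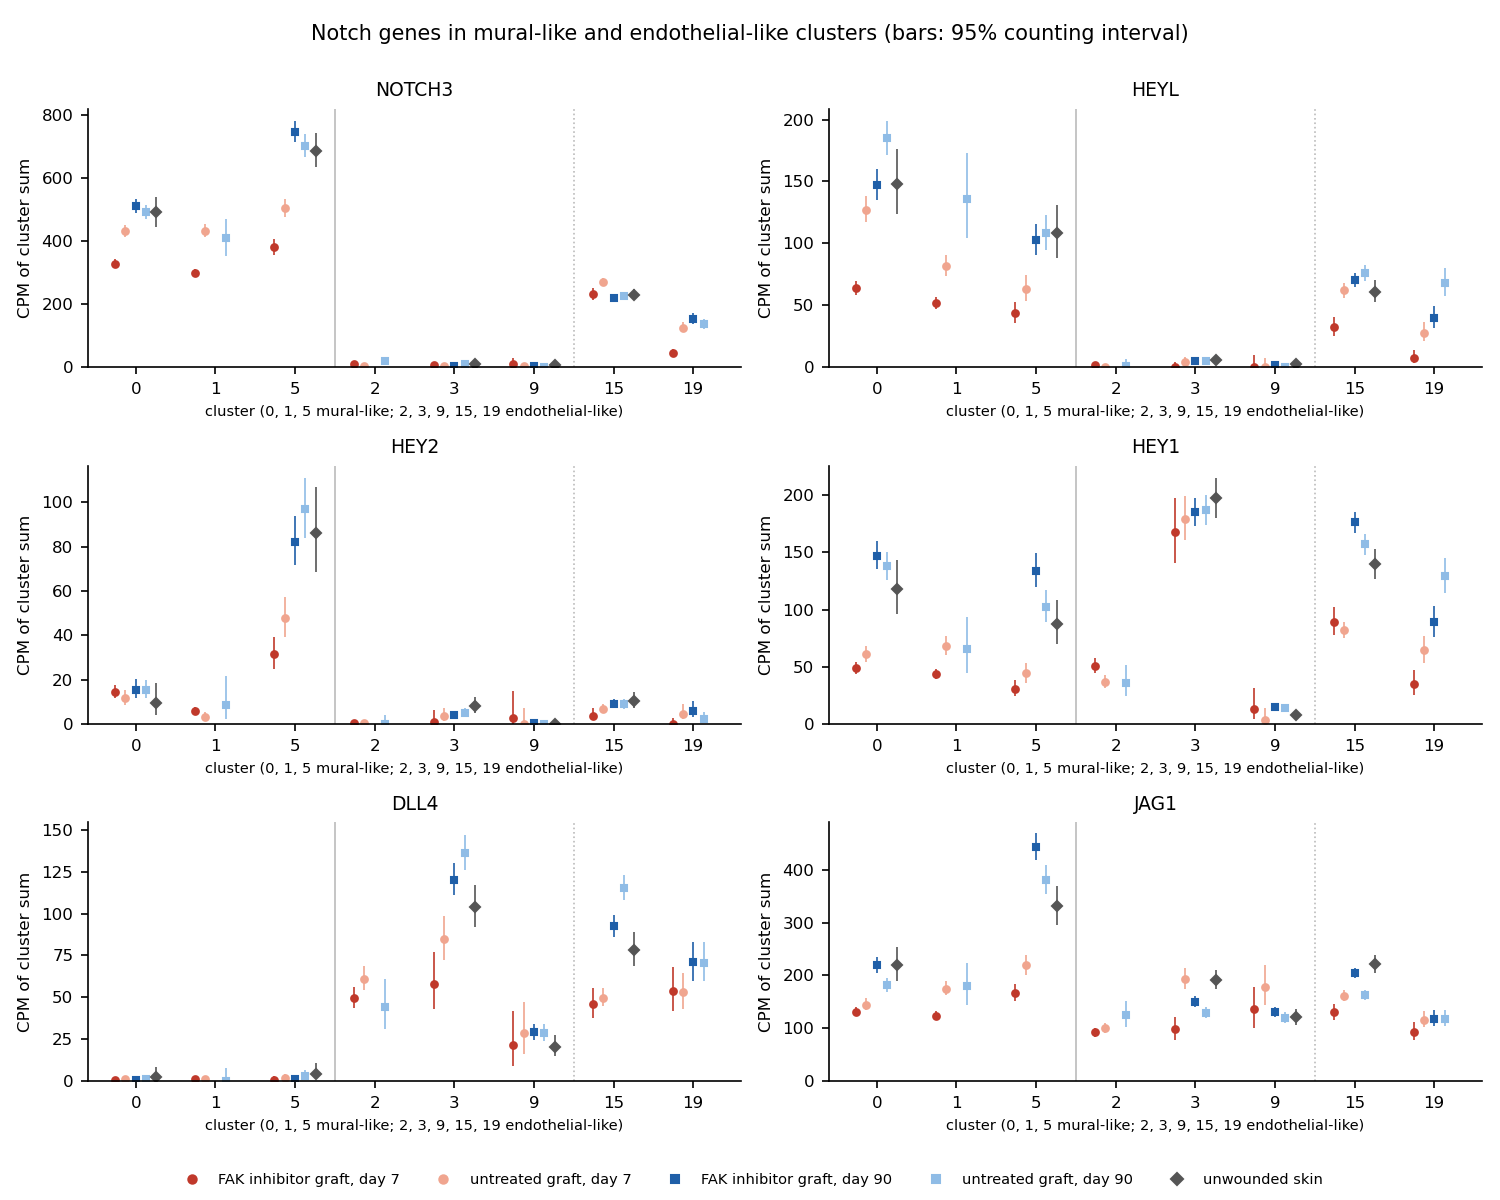
Levels (CPM of the summed UMIs, linear axes from 0) of 6 Notch genes in mural-like clusters (0, 1, 5) and endothelial-like clusters (2, 3, 9, 15, 19), for libraries with 50 cells or more in the cluster; bars are 95% counting intervals. HEY2 stands out in cluster 5, HEY1 and DLL4 in cluster 3, and NOTCH3 and HEYL are highest in cluster 15 on the endothelial-like side.

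The endothelial-like NOTCH3, NOTCH2 and HEYL came mostly from clusters 15 and 19. Cluster 15 (1001 cells) held NOTCH3 at 218 to 271 CPM and cluster 19, a dividing cluster, at 45.2 to 154 CPM where it had 50 cells. Without both clusters, endothelial-like cells held NOTCH3 at 8.66 and 2.92 CPM in the FAK inhibitor and the untreated graft at day 7, 4.29 and 6.77 CPM at day 90, and 9.23 CPM in unwounded skin. HEYL was then 1.39 to 4.51 CPM and NOTCH2 0.821 to 2.41 CPM. The share outside both clusters was largest for NOTCH2 in the FAK inhibitor graft at day 7, at 15 of 81 UMIs. Both clusters also carried pericyte or smooth muscle markers. These 13 markers summed to 5933 CPM in cluster 15 and 3054 CPM in cluster 19, against 247 to 665 CPM in clusters 2, 3 and 9. The median cell of cluster 15 held 3.14 times the UMIs of the median cell of its library. RGS5, a pericyte gene, was found in 99.3% of cluster 15 cells and PECAM1, an endothelial gene, in 99%. The part of joined cells and of free RNA in these levels was not tested. Clusters 15 and 19 made up 16.6% and 26.6% of endothelial-like cells in the FAK inhibitor and the untreated graft at day 7, 22.1% and 20.9% at day 90, against 15.2% in unwounded skin. The median cell of cluster 19 held 2.42 times the UMIs of its library median. Both clusters therefore weigh more in the summed CPM than these shares of cells. The endothelial-like levels of DLL4, JAG1, HES1 and HEY1 include both clusters, and values without them are not given here. In unwounded skin 35 of the 86 cells of cluster 15 had a shared barcode. With shared barcodes left out, endothelial-like NOTCH3 in unwounded skin was 42.2 CPM instead of 92.5 CPM, and HEYL 11.2 CPM instead of 25.8 CPM, while the mural-like NOTCH3 there was 591 CPM.

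At day 7 the FAK inhibitor graft was compared with the untreated graft. Each is 1 library, so a difference cannot be assigned to the inhibitor. A value was compared where both libraries had 50 cells of the class, the gene reached 10 CPM in either library and both sums together held 30 UMIs, and it was called higher or lower at 1.5-fold. This is a rule of size, not a test. Of 35 member by class values, 8 were lower in the FAK inhibitor graft and 1 was higher. Over all genes in the same classes, 8.30% of values were lower and 5.91% higher by the same rule. The members' share of lower values was 22.9%, and 3 of the 8 rest on clusters 15 and 19. By class, the shares of all genes called lower and higher were 8.41% and 2.23% in mural-like cells, 6.91% and 1.67% in endothelial-like cells, 8.22% and 4.45% in keratinocyte-like cells, and 5.30% and 2.52% in fibroblast-like cells.

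In mural-like cells HEYL was 56.6 CPM in the FAK inhibitor graft and 93.7 CPM in the untreated graft at day 7, a ratio of 0.604 (0.557 to 0.656). NOTCH2 was 42.2 CPM in the FAK inhibitor graft and 63.9 CPM in the untreated graft, a ratio of 0.660 (0.599 to 0.728). The intervals of the 2 libraries did not overlap for either gene, although the NOTCH2 value lies close to the 1.5-fold line. The other 5 mural-like members compared had ratios below 1 but did not reach 1.5-fold. NOTCH3 had a ratio of 0.725 (0.699 to 0.751), JAG1 of 0.752 (0.710 to 0.796), HEY1 of 0.721 (0.653 to 0.796), HES1 of 0.864 (0.815 to 0.917) and HEY2 of 0.846 (0.700 to 1.03). The median gene in mural-like cells had a log2 ratio of -0.10, so a small part of this is common to all genes. Centred on it, the log2 ratio of HEYL was -0.62, and that of NOTCH2 was -0.50, which is within 1.5-fold. HEYL was lower by the rule in 2 of the 3 main mural-like clusters, with ratios of 0.50 (0.441 to 0.567) in cluster 0 and 0.633 (0.548 to 0.731) in cluster 1, and did not reach 1.5-fold in cluster 5, at 0.691 (0.534 to 0.893). The NOTCH3 ratios in clusters 0, 1 and 5 were 0.761, 0.693 and 0.756. Mural-like cells of the FAK inhibitor graft had a median mitochondrial share of 2.76%, against 4.48% in the untreated graft. Markers of other cell types were lower there too, with 3 of 5 basal keratinocyte genes lower (median log2 ratio -0.65), 4 of 6 arterial endothelial genes (-0.72) and 2 of 6 venular endothelial genes (-0.43). The part of mitochondrial share and of these markers in the ratios was not tested.

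**Figure D3:**
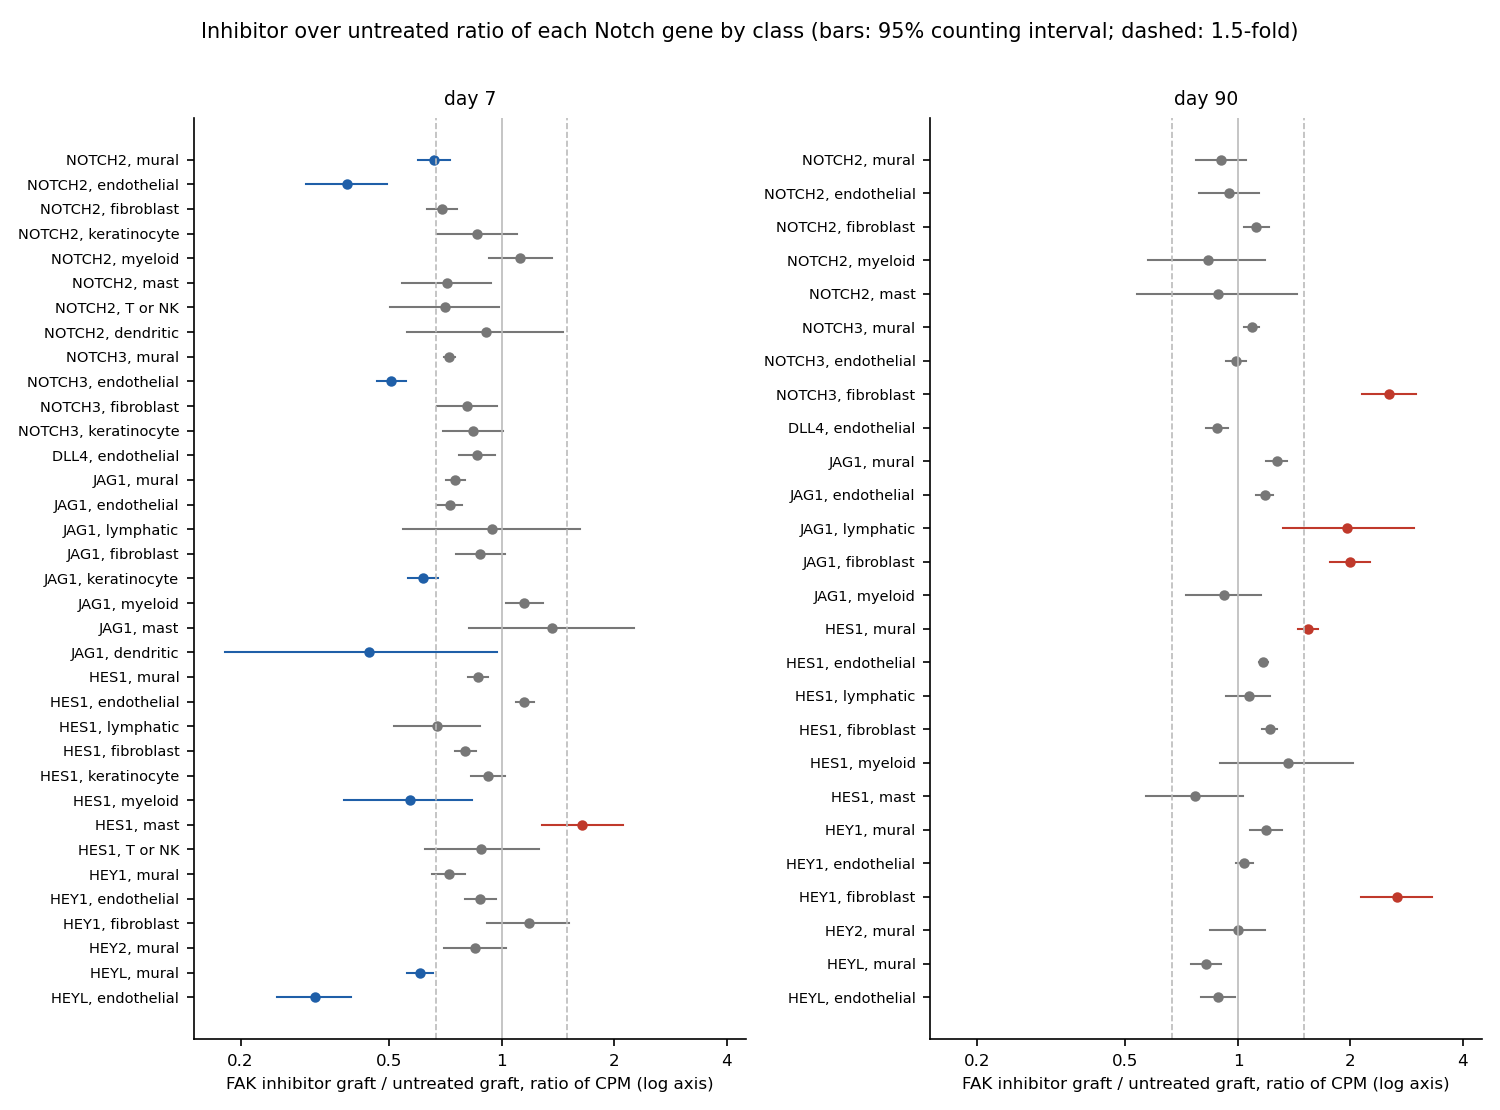
Ratio of the FAK inhibitor graft to the untreated graft (log axis) for each Notch gene in each class compared, at day 7 on the left and day 90 on the right. Points are ratios of CPM, bars 95% counting intervals, dashed lines 1.5-fold; blue is lower and red higher by that rule, with 8 lower and 1 higher at day 7 and 5 higher at day 90.

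The endothelial-like calls of day 7 were set by clusters 15 and 19. NOTCH3 was 66.3 CPM in the FAK inhibitor graft and 131 CPM in the untreated graft (ratio 0.507), NOTCH2 8.20 and 21.2 CPM (ratio 0.386), and HEYL 9.52 and 30.1 CPM (ratio 0.316). Without the 2 clusters none of the 3 reached 10 CPM in either graft. None of the other 4 members compared in endothelial-like cells, with clusters 15 and 19 included, reached 1.5-fold. DLL4 had a ratio of 0.858 (0.767 to 0.959), HEY1 of 0.876 (0.796 to 0.965), JAG1 of 0.726 (0.673 to 0.782) and HES1 of 1.15 (1.09 to 1.22). Within cluster 3, JAG1 was 97.8 CPM in the FAK inhibitor graft and 193 CPM in the untreated graft, a ratio of 0.506 (0.395 to 0.642), and this was the only call in that cluster among the members compared.

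In keratinocyte-like cells JAG1 was 116 CPM (108 to 125) in the FAK inhibitor graft and 189 CPM (179 to 199) in the untreated graft at day 7. The ratio was 0.617 (0.562 to 0.677) from 700 and 1277 UMIs. NOTCH3 had a ratio of 0.838 (0.696 to 1.01) in these cells and HES1 of 0.921 (0.827 to 1.02), so neither was separated from 1 by its interval. Against the 164 CPM (149 to 180) of unwounded skin, neither graft reached 1.5-fold for JAG1. The median mitochondrial share of keratinocyte-like cells was 3.22% in the FAK inhibitor graft and 4.81% in the untreated graft. The remaining calls of day 7 were in mast-like, myeloid-like and dendritic-like cells, the last 2 on few UMIs. Over all genes, 11.5% were higher in mast-like cells, and 11.1% and 13.8% were lower in myeloid-like and dendritic-like cells. HES1 in mast-like cells was 97.1 CPM in the FAK inhibitor graft and 59.1 CPM in the untreated graft (ratio 1.64, 1.28 to 2.11). HES1 in myeloid-like cells had a ratio of 0.568 (0.379 to 0.833) from 36 and 112 UMIs, and a log2 ratio of 0.01 when doublets were kept. JAG1 in dendritic-like cells had a ratio of 0.442 from 9 and 26 UMIs, and a log2 ratio of 0.67, the other way, with a looser filter on cells.

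The same comparison was made at day 90. Of 26 member by class values, 5 were higher in the FAK inhibitor graft and 0 lower, against 6.39% of all values higher and 7.11% lower. In mural-like cells 3.11% of all genes were higher and 4.41% lower, and in endothelial-like cells 0.968% and 1.20%. In mural-like cells HES1 was 408 CPM (393 to 423) in the FAK inhibitor graft and 265 CPM (252 to 277) in the untreated graft, a ratio of 1.54 (1.45 to 1.64). A HES1 UMI was found in 50.5% of thinned mural-like cells in the FAK inhibitor graft and 35.9% in the untreated graft. Clusters 0 and 5 both had more HES1 in the FAK inhibitor graft, at 403 and 254 CPM in cluster 0 and 428 and 331 CPM in cluster 5. Cluster 5 did not reach 1.5-fold. Of 11 clusters of any class compared for HES1, 1 was higher by the rule and 0 lower. The median mitochondrial share of mural-like cells was 4.59% in the FAK inhibitor graft and 3.16% in the untreated graft at day 90, and its part in the HES1 ratio was not tested. The HEYL ratio at day 90 was 0.822 (0.750 to 0.901), that of HEY2 was 0.999 (0.844 to 1.18), and that of NOTCH3 was 1.09 (1.04 to 1.14). In endothelial-like cells all 7 members compared lay between 0.878 (DLL4) and 1.18 (JAG1). JAG1 in lymphatic endothelial-like cells was 120 CPM in the FAK inhibitor graft and 61.0 CPM in the untreated graft, from 78 and 39 UMIs in 63 and 62 cells. Its ratio was 1.96 (1.32 to 2.96), in a class where 10.0% of genes were called higher.

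The other 3 calls of day 90 were in fibroblast-like cells. NOTCH3 was 22.8 CPM in the FAK inhibitor graft and 9.0 CPM in the untreated graft (ratio 2.53, 2.15 to 2.99). JAG1 was 34.8 and 17.4 CPM (ratio 2.0, 1.76 to 2.26), and HEY1 was 13.8 and 5.20 CPM (ratio 2.66, 2.14 to 3.31). Over all genes, 5.45% were higher and 4.02% lower in this class. The 2 grafts held fibroblast-like clusters in different proportions. Cluster 6, led by FBLN1, C4A and TNXB, made up 72.2% of them in the FAK inhibitor graft and 26.9% in the untreated graft, while cluster 10, led by THBS4, COL11A1 and SFRP2, made up 23.9% and 63.9%. These proportions leave out cluster 8, an unnamed cluster that matched fibroblasts best. Its marker score of 0.746 fell below the 0.8 needed for a name. At day 90 cluster 8 held 12 cells of the FAK inhibitor graft and 385 of the untreated graft. All 3 genes were low in cluster 10, with NOTCH3 at 3.04 and 3.84 CPM, JAG1 at 6.30 and 7.87 CPM and HEY1 at 1.74 and 0.959 CPM. Within cluster 6 the grafts were close for JAG1, at 49.7 and 49.4 CPM. NOTCH3 and HEY1 were somewhat higher in the FAK inhibitor graft there but did not reach 1.5-fold, at 32.5 and 24.7 CPM for NOTCH3 and 21.1 and 17.6 CPM for HEY1. With clusters weighted the same in both grafts, the log2 ratio was 0.32 for NOTCH3, 0.30 for HEY1 and -0.03 for JAG1, so none reached 1.5-fold. Fibroblast-like cells also carried pericyte or smooth muscle markers at 1219 CPM in the FAK inhibitor graft and 2537 CPM in the untreated graft. By list, the markers of other cell types differed in direction. In the FAK inhibitor graft relative to the untreated graft, 3 of the 4 smooth muscle genes compared were lower (median log2 ratio -1.30). Of 3 capillary pericyte genes 1 was higher and 0 lower (median 0.50), of 2 arterial endothelial genes 1 was higher (median 0.79), and of 7 venular endothelial genes 1 was higher (median 0.43), against -0.08 over all genes. The median mitochondrial share of fibroblast-like cells was 3.41% in the FAK inhibitor graft and 2.51% in the untreated graft. The part of these markers and of mitochondrial share in the result was not tested.

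**Figure D4:**
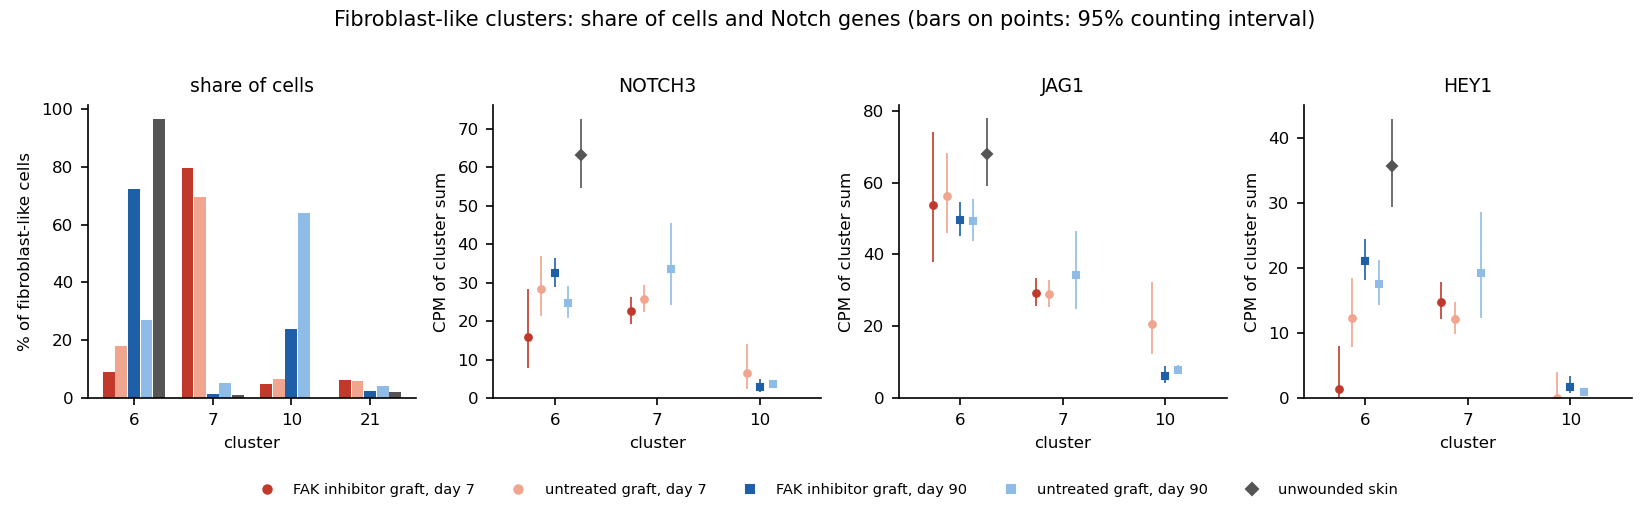
Left, the share (%) of fibroblast-like cells in clusters 6, 7, 10 and 21 for the 5 libraries. Right, NOTCH3, JAG1 and HEY1 (CPM, linear axes from 0, bars 95% counting intervals) in clusters 6, 7 and 10 where a library held 50 cells or more; all 3 genes are low in cluster 10, which holds 63.9% of the untreated cells at day 90 and 23.9% of the FAK inhibitor cells.

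Against unwounded skin, the members were mostly lower at day 7. Of 25 values in the FAK inhibitor graft at day 7, 19 were lower and 0 higher than in unwounded skin, where 29.8% of all values were lower and 20.0% higher. Of 26 values in the untreated graft at day 7, 13 were lower and 1 higher, where 24.4% of all values were lower and 18.6% higher. At day 90, 5 of 25 values were lower in the FAK inhibitor graft (11.3% of all values lower, 5.71% higher), and 7 of 21 were lower and 1 higher in the untreated graft (13.8% lower, 12.1% higher). The unwounded library serves all 4 comparisons, so they are not independent of each other. With shared barcodes left out the lower counts were 19, 13, 5 and 7, and the higher counts 1, 3, 2 and 3, the added higher values being NOTCH3 and HEYL of endothelial-like cells.

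In mural-like, endothelial-like and keratinocyte-like cells, HES1 was the member farthest below unwounded skin at day 7. In mural-like cells it stood at 136 CPM (131 to 141) in the FAK inhibitor graft and 157 CPM (150 to 164) in the untreated graft at day 7, 408 and 265 CPM at day 90, and 731 CPM (694 to 769) in unwounded skin. At day 7 HES1 was thus 5.39-fold lower in the FAK inhibitor graft (5.06 to 5.75) and 4.66-fold lower in the untreated graft (4.35 to 4.99) than in unwounded skin. The median gene of mural-like cells had log2 ratios of -0.30 and -0.17 in these comparisons, and HES1 centred on it was at -2.13 and -2.05. In endothelial-like cells HES1 was 3.76-fold lower in the FAK inhibitor graft and 4.34-fold lower in the untreated graft at day 7, and in keratinocyte-like cells 2.69-fold and 2.47-fold lower. In fibroblast-like cells it was 2.28-fold and 1.82-fold lower, less than NOTCH3 (3.23-fold and 2.61-fold) and HEY1 (2.75-fold and 3.24-fold). Different clusters held these classes. Cluster 2 made up 67.4% and 49.6% of endothelial-like cells in the FAK inhibitor and the untreated graft at day 7, against 4.45% in unwounded skin, and cluster 1 made up 50.1% and 40.0% of mural-like cells, against 8.12%. With shared clusters weighted the same, the log2 ratios of endothelial-like HES1 were -1.20 and -1.55 in place of -1.91 and -2.12, and those of mural-like HES1 were -2.21 and -1.93 in place of -2.43 and -2.22. Within endothelial-like cluster 3, HES1 was 446 and 369 CPM at day 7 against 1020 CPM in unwounded skin, and within mural-like cluster 0 it was 147 and 147 CPM against 751 CPM. By day 90 HES1 in mural-like cells was 1.79-fold lower in the FAK inhibitor graft and 2.76-fold lower in the untreated graft. In mast-like cells HES1 did not follow this course, standing at 195 and 254 CPM at day 90 and 133 CPM in unwounded skin on 21 UMIs.

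Immediate early genes are fast transcripts such as FOS and JUN that are also induced while tissue is digested. In mural-like and endothelial-like cells they lay in nearly the same order as HES1. The 12 immediate early genes measured summed in mural-like cells to 4343 and 4635 CPM in the FAK inhibitor and the untreated graft at day 7, 12000 and 10661 CPM at day 90, and 15711 CPM in unwounded skin. In endothelial-like cells the immediate early genes summed to 4688 and 4289 CPM at day 7, 11023 and 10917 CPM at day 90, and 14500 CPM in unwounded skin. None of the 12 was at 0 in these sums. In mast-like cells the order differed, since HES1 there was not below unwounded skin at day 90. Of 11 immediate early genes compared in mast-like cells, 5 were lower in the FAK inhibitor graft at day 90 than in unwounded skin (median log2 ratio -0.52). In the untreated graft 7 were lower (-0.69), and 0 were higher in either graft. The part of tissue digestion in the HES1 levels was not tested. With shared barcodes left out, the mural-like HES1 ratios over unwounded skin were 0.185 in the FAK inhibitor graft and 0.214 in the untreated graft at day 7, and 0.558 and 0.365 at day 90.

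**Figure D5:**
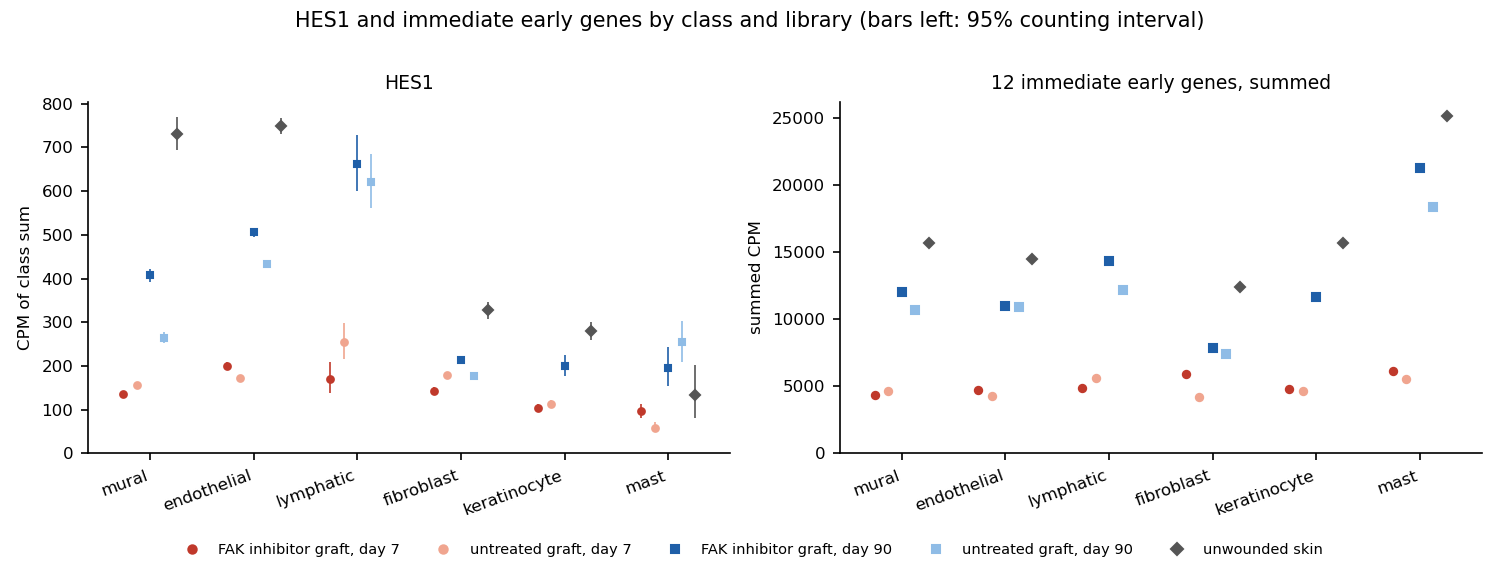
HES1 (left, CPM, bars 95% counting intervals) and the summed CPM of 12 immediate early genes (right) in 6 classes and the 5 libraries where a class held 50 cells. In mural-like and endothelial-like cells both are lowest at day 7, between at day 90 and highest in unwounded skin.

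The other targets of mural-like cells were also below unwounded skin at day 7. HEY2 was 3.54-fold lower in the FAK inhibitor graft (2.76 to 4.5) and 2.99-fold lower in the untreated graft (2.30 to 3.87) than in unwounded skin. HEY1 was 2.58-fold and 1.86-fold lower. HEYL was 2.23-fold lower in the FAK inhibitor graft (1.94 to 2.55), and in the untreated graft at day 7 it did not reach 1.5-fold. NOTCH3 and NOTCH2 likewise passed 1.5-fold against unwounded skin only in the FAK inhibitor graft, at 1.84-fold and 1.55-fold lower. JAG1 was 2.21-fold lower in the FAK inhibitor graft and 1.66-fold lower in the untreated graft. At day 90 none of these mural-like members except HES1 was past 1.5-fold in either graft. In fibroblast-like cells the gap remained at day 90. There NOTCH3 was 2.76-fold lower in the FAK inhibitor graft and 6.98-fold lower in the untreated graft than the 62.9 CPM of unwounded skin, and HEY1 2.52-fold and 6.70-fold lower than 34.9 CPM. Cluster 6 made up 96.5% of unwounded fibroblast-like cells, and within it NOTCH3 was 32.5 and 24.7 CPM at day 90 against 63.2 CPM in unwounded skin. Markers of vessel cells were also lower in the fibroblast-like cells of both day 90 grafts. Of 5 arterial endothelial genes compared, 4 were lower in the FAK inhibitor graft (median log2 ratio -1.20) and 5 in the untreated graft (-2.34) than in unwounded skin, and of 5 capillary pericyte genes 3 (-0.78) and 4 (-0.77). Of 4 smooth muscle genes, 3 were higher in each graft. The part of these markers in the fibroblast-like result was not tested.

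Of 48 further genes of the pathway, 47 were measured, and few passed 1.5-fold with the inhibitor in the 4 classes below. In mural-like cells at day 7, 3 of 29 compared were lower in the FAK inhibitor graft and 0 higher, where 8.41% of all genes were lower. Among them were LFNG, a Fringe sugar transferase that tunes the receptor (7.73 and 13.0 CPM, ratio 0.593), and MAML2, a coactivator of the Notch complex (9.16 and 13.8 CPM, ratio 0.665), named after its value was seen. The median log2 ratio of the 29 was -0.31, against -0.10 over all genes of these cells. In endothelial-like cells 1 of 32 was lower, KAT2B, an acetyltransferase (7.19 and 13.4 CPM, ratio 0.536), where 6.91% of all genes were lower. In keratinocyte-like cells 2 of 27 were lower, MIB1, the ubiquitin ligase that activates ligands (23.3 and 39.3 CPM, ratio 0.592), and SPEN, a corepressor (45.7 and 77.4 CPM, ratio 0.591), with a list median of -0.27 against -0.10 over all genes, and 8.22% of all genes were lower there. In fibroblast-like cells 1 of 27 was lower, EOGT, a sugar transferase (7.29 and 11.3 CPM, ratio 0.643), where 5.30% of all genes were lower. These counts are near or below the share of all genes and are no result about the pathway.

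At day 90, 11 of 166 pathway values over all classes were higher in the FAK inhibitor graft and 5 lower. Over all genes 6.39% of values were higher and 7.11% lower. There were 0 calls of 27 in fibroblast-like, 0 of 31 in mural-like and 0 of 32 in endothelial-like cells. Mast-like cells had 4 higher and 0 lower of 17, where 13.3% of all genes were higher and 8.19% lower. Lymphatic endothelial-like cells had 2 higher and 3 lower of 20, where 10.0% of all genes were higher and 14.2% lower. Myeloid-like cells had 2 higher and 2 lower of 27, where 9.95% of all genes were higher and 10.9% lower. These counts are values past 1.5-fold, not tests. In T or NK-like cells 3 of 12 were higher in the FAK inhibitor graft, namely LFNG (300 and 150 CPM, ratio 2.0, 1.42 to 2.80), HES6, a HES family gene (163 and 86.5 CPM, ratio 1.88, 1.17 to 2.97), and SNW1, a transcription cofactor (76.3 and 39.2 CPM, ratio 1.95, 0.95 to 3.87), with 76 and 213 cells in the class. Over all genes, 9.20% were higher and 15.1% lower in that class. Against unwounded skin at day 7, 21 of 31 pathway genes of keratinocyte-like cells were lower in the FAK inhibitor graft and 11 of 31 in the untreated graft, where 33.4% and 24.7% of all genes were lower. In mast-like cells 11 of 21 were lower and 2 higher in the FAK inhibitor graft, and 12 lower and 2 higher in the untreated graft, where 28.4% and 33.6% of all genes were lower.

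Each member was also matched with the genes most like it across 41 sums of a class in a library, by the Pearson correlation of log2(CPM + 10) among 6061 genes. The sums share libraries, depth and cell classes, so these values are descriptions. HEYL was closest to TBX2 (r = 0.98), MRVI1 and ITGA7, HEY2 to ADCY5, CASQ2 and CDH6 (0.96), and NOTCH3 to IL17B (0.96), MYLK and SEMA5A. DLL4 was closest to AVPR2, ARHGEF15 and CYYR1 (0.98), and HEY1 to LIMS2 (0.96), ADAMTS4 and FAM13C. HES1 was closest to NFIA (0.95), TSHZ1 and KLF10, JAG1 to PTPRK (0.87), APP and RND3, and NOTCH2 to FAM20C (0.89), CDK14 and RUNX1. Among the members, HEY2 and HEYL were most alike (0.93), then NOTCH3 and HEYL and HEY1 and HEYL (0.88 each), while NOTCH2 and DLL4 ran opposite (-0.45).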

How the data were processed

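The authors deposited UMI counts per gene and cell barcode for 5 libraries, made with Cell Ranger per the submitters' processing notes. The headers of the count matrices give software version 3.1.0. The genome build is not given in the sources used here. All values were whole numbers. Cells with at least 500 genes and at most 25% mitochondrial UMIs were kept, and the top Scrublet scores were removed at 0.8% per 1000 cells (1614 cells), since the automatic threshold marked only 214. Clustering used 2000 variable genes, 30 components, 20 neighbours and Leiden resolution 1 (Scanpy 1.11.5, leidenalg 0.10.2). Clusters were named from 148 measured marker genes. CPM have exact Poisson intervals, ratios exact conditional binomial intervals and shares Clopper-Pearson intervals, all at 95%. PCR and droplet losses lie outside them. The functions were tested on simulated data. DLL4 and HES1 were among the clustering genes. The members, lists and comparisons were chosen with earlier results of these data known. All members are described. Pathway genes past 1.5-fold with the inhibitor were named in mural-like, endothelial-like, keratinocyte-like, fibroblast-like and T or NK-like cells, at most 4 per list, and given as counts elsewhere. Of these, 1 gene is not reported here.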

Additional observations from a re-analysis of the deposited data

How the results depend on the processing

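Of 60 called values, 58 stayed past 1.5-fold with a looser cell filter, 56 (of 57 recomputed) with a stricter one, 53 with the mean of per-cell CPM, 55 with doublets kept, 58 without Notch genes in clustering, 51 with each library clustered alone, 54 after centring on the median gene, 43 with shared clusters weighted the same, and 56 without clusters 15 and 19, a setting chosen after seeing the data like those on cluster 8 (60) and shared barcodes (59). The highest class was the same in 37 to 40 of 40 cases. Against 9 calls at day 7 there were 5 at a 50 CPM minimum, 29 without a minimum and 3 at 2-fold. Against 5 at day 90 there were 2 at 50 CPM, 16 without a minimum, 2 at 2-fold, 2 with shared clusters weighted the same and 11 with libraries clustered alone. Against unwounded skin, no minimum gave 22 (untreated, day 7), 9 (FAK inhibitor, day 90) and 13 (untreated, day 90), 2-fold gave 8, 2 and 4, and libraries clustered alone gave 8 (FAK inhibitor, day 90) and 13 (untreated, day 90). The number of values compared and the share of all genes called can also change with the rule. Neither is given here, so more calls under a rule do not mean a stronger result. The following log2 ratios changed sign. In the inhibitor comparison at day 7, without clusters 15 and 19, endothelial-like NOTCH2 was 0.94, NOTCH3 1.57 and HEYL 0.06; HES1 in myeloid-like cells was 0.01 with doublets kept, and JAG1 in dendritic-like cells 0.67 with the looser filter. JAG1 in fibroblast-like cells at day 90 was -0.03 with shared clusters weighted the same, as was NOTCH2 in endothelial-like cells of the untreated graft at day 7 over unwounded skin. With libraries clustered alone, endothelial-like values over unwounded skin at day 7 were 2.97 for HEY1 and 1.66 for HEYL in the FAK inhibitor graft and 2.92 for HEY1 in the untreated graft. Beyond the settings' own construction, the cause was not tested. No paired analysis was possible because each group is 1 library. With 1 library per group, animal, batch and treatment cannot be told apart.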
